A study of Homo sapiens with 8 samples.

Results

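The proteasome subunit genes of HepG2 cells, an established human hepatocellular carcinoma line, were followed across 3 treatment groups. Members were the rows of the gene tables whose Ensembl ID carries a current symbol of the form PSMA, PSMB, PSMC, PSMD or PSME with a number and is annotated as protein coding, which gave 41 of 20897 genes. They comprise 17 core genes (8 PSMA and 9 PSMB) and 24 regulatory genes (6 PSMC, 14 PSMD and 4 PSME). The rule used names only and no measured value. The symbols PSMB3 and PSMB9 had no row under their current Ensembl ID and were not analysed here.

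PolyA RNA was sequenced from cells treated for 18 h with genistein (3 libraries), a soy isoflavone that inhibits tyrosine kinases and binds oestrogen receptors, with BMP6 at 50 ng/ml (2 libraries), a bone morphogenetic protein that induces hepcidin in hepatocytes, or with vehicle alone (3 libraries, here DMSO). Cells of every group were held in 1% serum and 1% DMSO. The genistein dose is given as 10 micromolar in the series design and as 10 millimolar in the treatment protocol. HepG2 is a single tumour line, so each group describes that line only, and the libraries are called biological replicates in the series design, with nothing that says whether they came from separate cultures on separate days; p-values then measure only the spread between these libraries. Values are the deposited FPKM, by definition fragments scaled to transcript length and to library size. The lowest values above 0 did not follow transcript length (Spearman correlation from -0.094 in DMSO 3 to 0.0898 in genistein 2). Comparisons of level between different genes are therefore uncertain.

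The proteasome is the barrel-shaped protease that degrades proteins tagged with ubiquitin. Its core particle stacks outer rings of alpha subunits, which gate the entry, on inner rings of beta subunits, some of which carry the proteolytic sites. The regulatory particle unfolds and feeds substrates: PSMC genes encode its ATPases, PSMD genes its scaffold, ubiquitin receptor, deubiquitinase and lid subunits together with a few assembly chaperones, and PSME genes encode alternative activators that do not need ubiquitin. When proteasome activity is short, the transcription factor NFE2L1 raises the subunit genes together through antioxidant response elements. Interferon gamma replaces the constitutive catalytic subunits with the immunoproteasome subunits, which change the peptides presented by MHC class I.

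Promoter sequences are shown for the 4 members that passed the threshold after genistein, because shared control of subunit genes is usually sought there. Sequences are from RefSeq (GRCh38.p14), run 5′ to 3′ on the strand of the gene and cover the 250 bases before the annotated start. Capitals mark matches, on either strand, to CCAAT, to TGACNNNGC (the core of the antioxidant response element) or to an interferon response motif (GAAA, any 2 bases, GAAA).
PSMD14, chr2:161308175-161308424, plus strand: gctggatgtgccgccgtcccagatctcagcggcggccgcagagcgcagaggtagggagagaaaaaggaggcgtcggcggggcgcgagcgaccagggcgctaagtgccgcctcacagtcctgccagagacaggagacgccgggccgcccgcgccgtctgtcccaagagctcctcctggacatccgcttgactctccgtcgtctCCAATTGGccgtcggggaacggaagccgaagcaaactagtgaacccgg
PSMA5, chr1:109426449-109426698, minus strand: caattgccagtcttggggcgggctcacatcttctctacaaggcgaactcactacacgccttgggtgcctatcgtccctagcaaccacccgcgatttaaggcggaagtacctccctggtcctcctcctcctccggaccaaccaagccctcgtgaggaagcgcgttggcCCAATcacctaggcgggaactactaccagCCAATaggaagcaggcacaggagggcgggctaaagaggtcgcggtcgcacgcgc
PSME4, chr2:53970994-53971243, minus strand: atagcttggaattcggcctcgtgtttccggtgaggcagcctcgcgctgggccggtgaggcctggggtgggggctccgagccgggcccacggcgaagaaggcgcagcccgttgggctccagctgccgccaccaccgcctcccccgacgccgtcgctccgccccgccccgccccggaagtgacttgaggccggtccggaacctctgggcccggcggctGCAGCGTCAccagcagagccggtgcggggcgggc
PSMD1, chr2:231056617-231056866, plus strand: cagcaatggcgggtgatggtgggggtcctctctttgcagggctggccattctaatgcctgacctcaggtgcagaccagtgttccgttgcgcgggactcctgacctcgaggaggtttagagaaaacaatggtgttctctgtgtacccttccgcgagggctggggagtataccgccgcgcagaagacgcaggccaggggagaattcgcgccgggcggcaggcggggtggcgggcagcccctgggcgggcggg

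PSMD14 held CCAAT on both strands, in a pair of matches that overlap by 2 bases, PSMA5 held CCAAT at 2 positions, PSME4 held 1 match to TGACNNNGC on the opposite strand and PSMD1 held none of the 3 motifs in this stretch, with 1 match to TGACNNNGC after its start. Over windows of 300 bases (250 before to 50 after the start), which were available for 36 of the 41 members, TGACNNNGC occurred in 11 of 36 member genes (30.6%) and in 16.1% of all 27305 genes with a window. Of the 11, 10 were among 23 regulatory genes and 1 among 13 core genes. CCAAT occurred in 17 of 36 member genes (47.2%) and in 39.7% of all genes. The set of all genes was not limited to protein-coding genes, unlike the members, so the shares compare unlike sets. The interferon response motif occurred in 6 of 36 member genes (16.7%) and in 4.38% of all genes. The 4 matches in genes of the immunoproteasome and its activator lay within 30 bases of an annotated start and are shown because these genes are described as a group below; the other 2 were in PSMA4 and PSMB4.
PSMB8: TTTCGCTTTC
PSMB10: GAAAGCGAAA
PSME1: TTTCGCTTTC
PSME2: GAAAGCGAAA

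The capitals there are the whole match as read on the gene's strand, so that PSMB8 and PSME1 carry it on the opposite strand. A match is a description of letters and shows neither binding nor control. Multiple annotated starts of a gene were counted once.

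Libraries differed in ways that the groups do not explain. FPKM totals ranged from 1704599 to 3105197 per library, and genistein 2 and DMSO 1 had the most tested genes listed at 0 (2167 and 1679, against 356 to 962 in the other 6). Log2 values correlated across tested genes at 0.913 to 0.96 within genistein, 0.847 between the BMP6 libraries and 0.884 to 0.963 within DMSO. The BMP6 libraries were thus not each other's nearest match. BMP6 1 reached 0.889 with genistein 3 and stayed below 0.847 with all remaining genistein and DMSO libraries. BMP6 2 reached 0.912 with DMSO 3 and 0.896 with genistein 1, and only its value with DMSO 1 (0.815) was below 0.847. Hepatocyte markers were abundant in all libraries (summed FPKM of 6 genes 127675 to 207410 in genistein, 198342 to 217642 in BMP6 and 173452 to 214658 in DMSO), although single markers moved: TTR fell after genistein (log2 change -2.64 ± 0.52, limma adjusted p = 0.0193), and APOA1 was lower and ALB higher in all genistein libraries than in all DMSO libraries without passing (log2 changes -2.85 ± 0.95 and 0.86 ± 0.93). Of 15 genes with a row among the 16 markers of other cell types, 6 were listed at 0 throughout: PTPRC, CD3E, COL1A1, COL1A2, KDR and CFTR. The summed haematopoietic list, nearly all of it LYZ, stood at 1218 to 1925 FPKM in genistein, 1552 to 2391 in BMP6 and 3250.1 to 4839 in DMSO. LYZ itself passed lower after genistein (log2 change -1.58 ± 0.42, limma adjusted p = 0.0448). CD68, of the same list, went the other way, with 84.3, 86.7 and 68.8 FPKM in genistein and 40.6, 31.4 and 32.4 in DMSO (log2 change 1.18 ± 0.30, limma adjusted p = 0.0406). The summed cholangiocyte list, nearly all of it SOX9, stood at 143 to 238 FPKM in genistein, 104 to 286 in BMP6 and 751 to 1303 in DMSO. SOX9 also passed lower after genistein (log2 change -2.30 ± 0.45, limma adjusted p = 0.0179). Endothelial genes summed to at most 1.71 FPKM in any library, and the fibroblast list, mainly ACTA2, to 139 to 179 in genistein, 149 to 261 in BMP6 and 253 to 265 in DMSO. The part of these differences in the results was not tested.

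Of the 41 members, 39 were measured above 0 in all 8 libraries and passed the filter of at least 1 FPKM in at least 2 libraries. The other 2 were listed at 0 in every library. They are PSMA8, the alpha subunit of germ cells, and PSMB11, the catalytic subunit of thymic epithelium. The gene name table lists pseudogenes for 15 members, including PSMD14 and PSMA5 with 1 each, and 8 members overlap another gene, so reads of these may be shared.

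**Figure D1:**
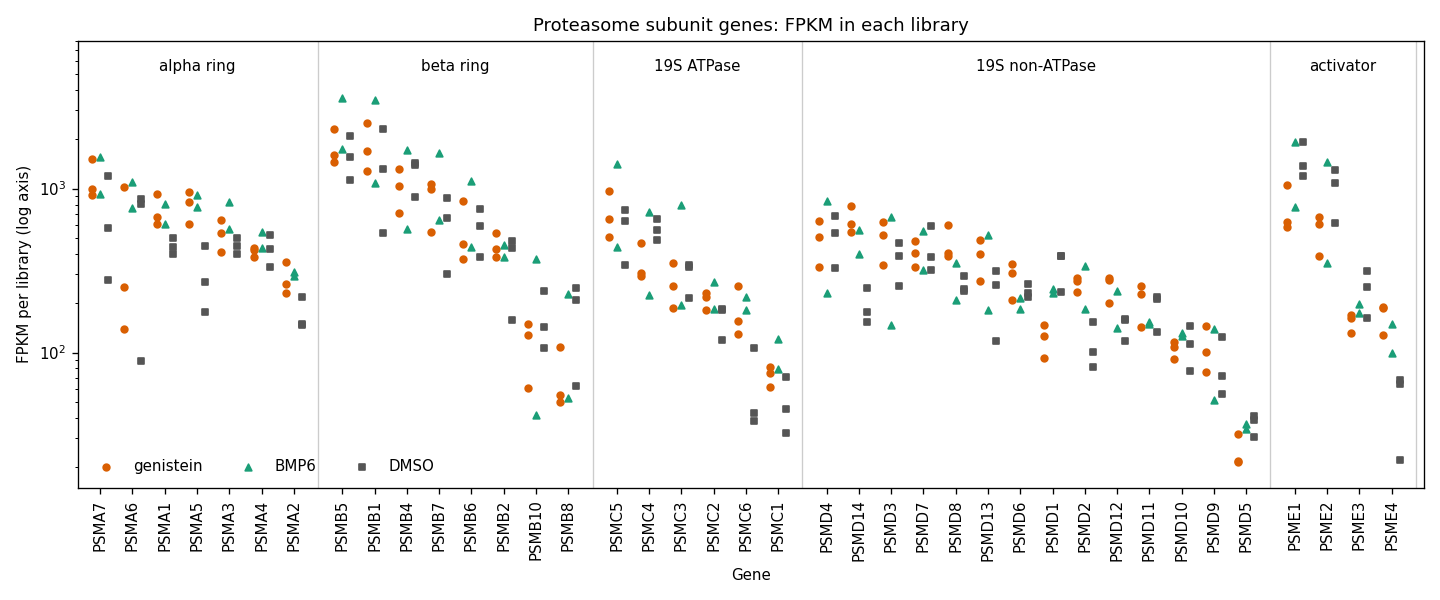
FPKM of the 39 proteasome genes above 0, on a log axis, in each genistein (circles), BMP6 (triangles) and DMSO (squares) library, grouped by part and ordered by mean level. PSMB5 and PSMB1 head the core, PSME1 heads the regulatory genes and PSMD5 has the lowest mean; the groups overlap for most genes.

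Levels differed widely between core genes. Among the 15 core genes above 0, group means ran from 71.0 FPKM (PSMB8) to 1832 FPKM (PSMB1) in genistein, from 139.8 (PSMB8) to 2670.2 (PSMB5) in BMP6 and from 163 (PSMB10) to 1589 (PSMB5) in DMSO. PSMB5, which carries the chymotrypsin-like site, had 2326, 1601 and 1447 FPKM in genistein 1 to 3, 1745 and 3596 in BMP6 1 and 2 and 1129, 1549.7 and 2088 in DMSO 1 to 3, so that the groups overlapped. Regulatory genes were lower, with a median of group means of 264 FPKM in genistein, 249.1 in BMP6 and 234 in DMSO, against 555, 774 and 448 for the core genes above 0. PSMD5, a chaperone of regulatory particle assembly, was the lowest regulatory gene in 7 of the 8 libraries, and PSME1 was the highest in 7 of 8. The exceptions were PSME4, the lowest in DMSO 1, and PSMC5, the highest in genistein 2.

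Libraries of 1 group differed widely as well. The highest library of a group exceeded the lowest by a median of 1.66-fold in genistein, 1.69-fold in BMP6 and 2.24-fold in DMSO over the core genes, and by 1.59-fold, 1.68-fold and 1.83-fold over the regulatory genes. These ratios were not corrected for FPKM totals, which also differed between libraries of a group. PSMA6, an alpha ring subunit, varied most within genistein and within DMSO: it had 1018, 139 and 249.6 FPKM in genistein, 759.8 and 1100.3 in BMP6 and 89.1, 866 and 804 in DMSO. Its lowest values were in DMSO 1 and genistein 2, the libraries with the most genes at 0. PSMA6 has 4 pseudogenes in the gene name table and overlaps another gene row, so its reads may be shared and its values are uncertain.

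Summed over the core, FPKM were 14585, 10085 and 8545 in genistein, 9388 and 18621 in BMP6 and 5429, 9632 and 12415 in DMSO. The regulatory sum was 9386, 7251 and 6420.4 in genistein, 5352 and 12219 in BMP6 and 6159, 8149.9 and 8953 in DMSO. Both sums were highest in BMP6 2, which also had the highest FPKM total, and all groups overlapped. As a share of each library's total, the core made up 0.512, 0.427 and 0.459% in genistein, 0.551 and 0.600% in BMP6 and 0.293, 0.440 and 0.527% in DMSO. On that scale both BMP6 libraries were above the 3 DMSO libraries, whereas genistein lay within the DMSO range. The regulatory share overlapped between all groups, at 0.330, 0.307 and 0.345% in genistein, 0.314 and 0.394% in BMP6 and 0.333, 0.372 and 0.380% in DMSO. The core sum exceeded the regulatory sum in every library except DMSO 1, where the ratio was 0.881.

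**Figure D2:**
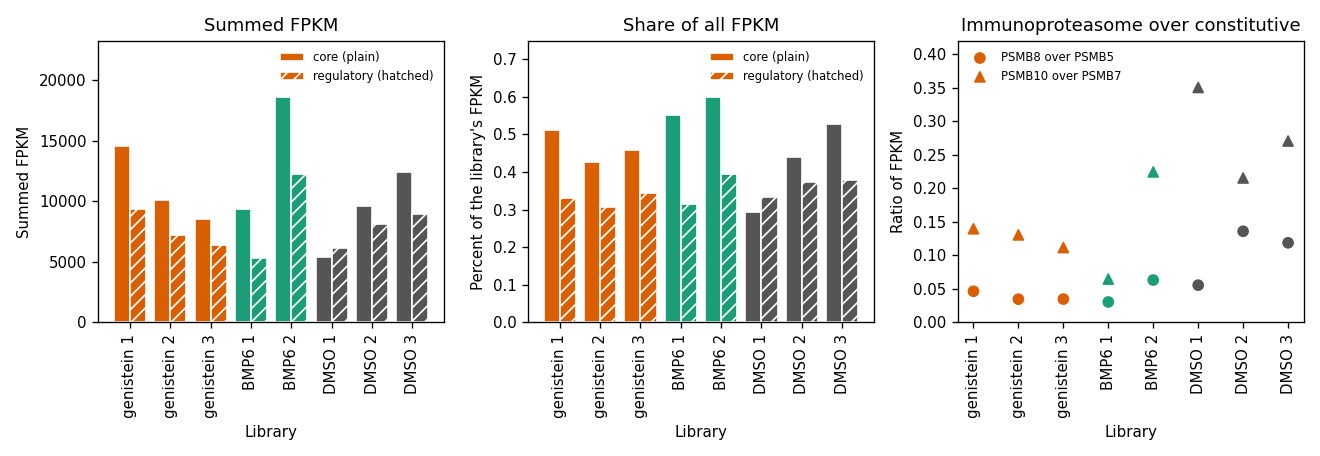
Summed FPKM of core (plain bars) and regulatory (hatched bars) genes by library, the same sums as a percent of all FPKM of the library, and the FPKM ratios PSMB8 over PSMB5 (circles) and PSMB10 over PSMB7 (triangles). Orange marks genistein, green BMP6 and grey DMSO. The sums overlap between groups, and both ratios are lower in the 3 genistein libraries (at most 0.0463 and 0.139) than in the 3 DMSO libraries (at least 0.0554 and 0.215). The ratios were computed after the values were seen and carry no test, and neither PSMB8 nor PSMB10 passed.

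Genistein was compared with DMSO to ask which transcripts an 18 h treatment changed. A few proteasome genes changed and most did not pass: PSMD14, PSMA5 and PSME4 were higher and PSMD1 was lower. That is 4 of 39 tested members, or 10.3%, against 12.1% of all 12661 genes tested (limma, adjusted p under 0.05), so the share of members called was near that of genes in general. Rises numbered 3 of 39, against 6.11% of all genes, and falls 1 of 39, against 5.96%. At an unadjusted p under 0.05 there were 9 members (23.1%), against 29.95% of all genes. The median log2 change was 0.23 over the 15 core genes tested and 0.29 over the 24 regulatory genes, against 0.05 over all genes tested, and 23 of 39 members had a positive change (59.0%), against 51.5% of all genes. The core median was -0.03 without DMSO 1, where the median of all genes was -0.11, so that the core lay 0.08 above it, against 0.18 with all libraries. Median-of-ratios scaling moved the median of all genes by -0.10 and gave 0.11 for the core and 0.17 for the regulatory genes. Genistein libraries lay wholly above the DMSO libraries for 9 of 39 members, against 23.3% of all genes, and wholly below for 3, against 20.6%. Together these are 12 of 39 members, against 43.9% of all genes. In bulk RNA, fewer cells of a type and less RNA per cell cannot be told apart.

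PSMD14 (ENSG00000115233; hg18, chromosome 2, 161872795 to 161976474) encodes the deubiquitinase of the lid, which removes ubiquitin chains as substrates enter. It had 783, 542 and 609 FPKM in genistein 1, 2 and 3, and 153, 178 and 248 FPKM in DMSO 1, 2 and 3. The lowest genistein library was more than 2-fold above the highest DMSO library. The means were 644 ± 125 FPKM in genistein and 193 ± 49.4 FPKM in DMSO (SD, n = 3 each), a 3.34-fold difference. PSMD14 rose by 1.75 ± 0.33 (log2 of FPKM + 1, SE; limma adjusted p = 0.0163), the smallest adjusted p among the members. The adjusted p was 0.0639 without genistein 1, 0.0713 without genistein 3 and 0.0732 without DMSO 2, and under 0.05 without any other single library.

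PSMA5 (ENSG00000143106; hg18, chromosome 1, 109745997 to 109770589), an alpha ring subunit, had 830.1, 954 and 605 FPKM in genistein and 178, 268 and 449 FPKM in DMSO. The groups did not overlap, and the DMSO libraries themselves differed by more than 2-fold. It averaged 796 ± 177 FPKM in genistein and 298 ± 138 FPKM in DMSO (SD, n = 3 each) and rose by 1.49 ± 0.40 in log2 units (limma adjusted p = 0.0488). This value is just under the threshold, and it was 0.134, 0.147 and 0.109 without genistein 1, 2 or 3 and 0.104 and 0.145 without DMSO 1 or 2.

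PSME4 (ENSG00000068878; hg18, chromosome 2, 53944708 to 54051481) encodes the large nuclear activator PA200, which is linked to histone turnover and DNA repair. It had 187, 128 and 191 FPKM in genistein and 22.01, 64.3 and 68.04 FPKM in DMSO, with DMSO 1 lowest and no overlap. The means were 169 ± 35.1 FPKM in genistein and 51.5 ± 25.6 FPKM in DMSO (SD, n = 3 each), and PSME4 rose by 1.83 ± 0.47 in log2 units (limma adjusted p = 0.042). The adjusted p was 0.121, 0.0848 and 0.142 without genistein 1, 2 or 3 and 0.058, 0.088 and 0.0607 without DMSO 1, 2 or 3.

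PSMD1 (ENSG00000173692; hg18, chromosome 2, 231629852 to 231745717), a large scaffold subunit of the regulatory particle base, went the other way. It had 147, 92.9 and 127 FPKM in genistein and 388, 390.2 and 233 FPKM in DMSO, so that every genistein library was below every DMSO library. It averaged 122 ± 27.5 FPKM in genistein and 337 ± 89.97 FPKM in DMSO (SD, n = 3 each), with a log2 change of -1.44 ± 0.33 (limma adjusted p = 0.0292). The adjusted p was 0.0655, 0.104 and 0.104 without genistein 1, 2 or 3 and 0.0675 and 0.112 without DMSO 1 or 2. HTR2B overlaps PSMD1, and the sources used here do not give how the counting used strand.

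**Figure D3:**
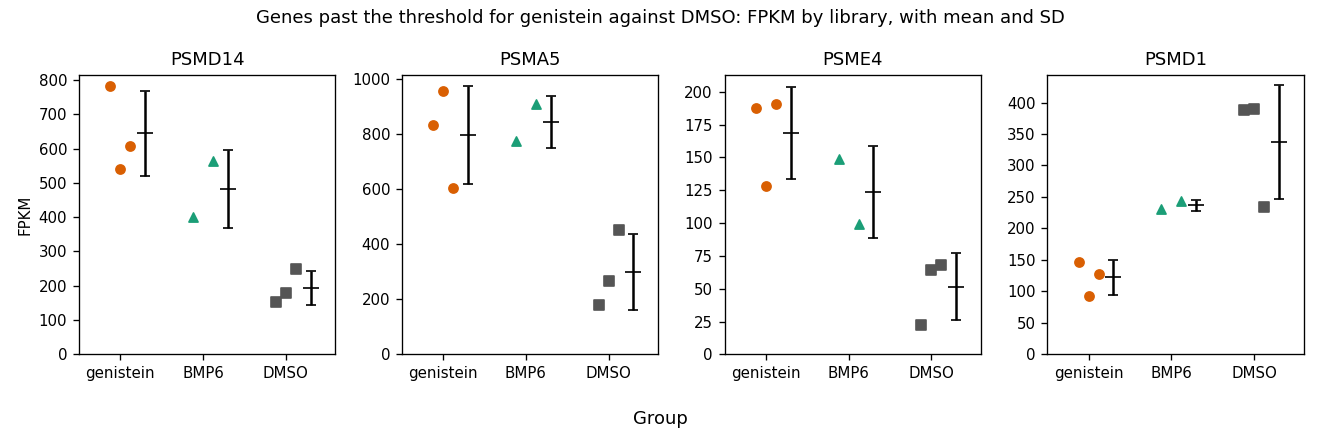
FPKM of PSMD14, PSMA5, PSME4 and PSMD1 in each genistein, BMP6 and DMSO library, with the group mean and SD beside the points; each vertical axis starts at 0. PSMD14, PSMA5 and PSME4 are higher in all genistein and BMP6 libraries than in all DMSO libraries, and PSMD1 is lower in the genistein libraries than in the others.

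In the alpha ring, PSMA5 was the member of 7 tested that passed after genistein (14.3%, against 12.1% of all genes by limma). A positive change was seen in 5 of 7, against 51.5% of all genes. PSMA1 and PSMA2 also had genistein libraries wholly above DMSO, with 929, 611 and 672 FPKM in genistein and 443, 401 and 499 in DMSO for PSMA1 and log2 changes of 0.70 ± 0.31 and 0.71 ± 0.31, but neither passed (limma adjusted p = 0.176 and 0.162). The others were PSMA7 (log2 change 0.96 ± 0.56), PSMA3 (0.23 ± 0.32), PSMA4 (-0.03 ± 0.30) and PSMA6 (-0.27 ± 0.99). PSMA4 differed least among the core genes.

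No beta ring gene of 8 tested passed after genistein (limma), against 12.1% of all genes. None had an unadjusted p under 0.05 either (limma), against 29.95% of all genes. Counts over so few genes do not set the parts of the proteasome apart. Of the 8, 4 had a positive and 4 a negative change, against 51.5% positive over all genes. The constitutive catalytic subunits PSMB5, PSMB6 and PSMB7, which cut after hydrophobic, acidic and basic residues in that order, had log2 changes of 0.19 ± 0.45, -0.08 ± 0.49 and 0.56 ± 0.55. PSMB7 had 1074, 989 and 542 FPKM in genistein and 304, 667 and 882 in DMSO, and PSMB6 had 835, 374 and 457 in genistein and 382, 588 and 756 in DMSO. Both overlapped between groups. Among the structural subunits, log2 changes were 0.58 ± 0.66 for PSMB1, 0.47 ± 0.45 for PSMB2 and -0.30 ± 0.50 for PSMB4.

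The immunoproteasome subunits were the lowest of the beta ring. PSMB8, the inducible counterpart of PSMB5, had 108, 55.2 and 50.1 FPKM in genistein and 62.6, 210.3 and 247 in DMSO. Genistein 1 was above DMSO 1, so the groups overlapped, and the log2 change of -1.14 ± 0.69 did not pass (limma adjusted p = 0.303). An antisense gene overlaps PSMB8 and strand use is not given, so its reads may be mixed with those of that gene. PSMB10, the counterpart of PSMB7, had 149.8, 129 and 60.5 FPKM in genistein and 106, 143 and 238 in DMSO, with a log2 change of -0.54 ± 0.77 (limma adjusted p = 0.668). Taken as ratios within a library, PSMB8 over PSMB5 was 0.0463, 0.0345 and 0.0346 in genistein, 0.0303 and 0.0630 in BMP6 and 0.0554, 0.136 and 0.119 in DMSO. PSMB10 over PSMB7 was 0.139, 0.130 and 0.111 in genistein, 0.0644 and 0.224 in BMP6 and 0.350, 0.215 and 0.270 in DMSO. Both ratios were lower in the 3 genistein libraries than in the 3 DMSO libraries, while the BMP6 libraries overlapped DMSO. These ratios were computed after the values were seen, carry no test and do not depend on the scaling between libraries. Among single genes, 43.9% of all tested did not overlap between the genistein and DMSO libraries.

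PSME4 stood apart from the other activators. PSME1 and PSME2 encode the interferon-inducible PA28 activator, PSME3 its nuclear relative. PSME1 had 1048, 581 and 629 FPKM in genistein and 1197, 1382 and 1933 in DMSO, with no overlap and a log2 change of -1.02 ± 0.46, which did not pass (limma adjusted p = 0.179). PSME2 had 668, 605 and 388 FPKM in genistein and 614, 1088 and 1294 in DMSO, and PSME3 had 162, 168 and 132 in genistein and 314, 251 and 161 in DMSO. Their log2 changes were -0.82 ± 0.57 and -0.61 ± 0.32 (limma adjusted p = 0.367 and 0.247), and the groups overlapped for both genes. PSME1 over PSME4 was 5.60, 4.53 and 3.30 in genistein, 5.20 and 19.5 in BMP6 and 54.4, 21.5 and 28.4 in DMSO, so the ratio, which holds the called PSME4, was lower in every genistein and BMP6 library than in every DMSO library. The ratios PSME1 over PSME3, PSME2 over PSME3 and PSME1 over PSME2 overlapped between genistein and DMSO; the first was 6.46, 3.45 and 4.78 in genistein and 3.81, 5.50 and 11.98 in DMSO. PSME2 has 6 pseudogenes in the gene name table, and reads may be shared with them. With median-of-ratios scaling the adjusted p of PSME1 fell to 0.0324, with a log2 change of -1.14.

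None of the 6 ATPase genes passed after genistein (limma), against 12.1% of all genes. At an unadjusted p under 0.05 (limma) there was 1 (16.7%), against 29.95% of all genes. With 6 genes these counts do not set the ATPases apart. PSMC6 came nearest, with 130.2, 253 and 155 FPKM in genistein and 38.01, 42.6 and 107 in DMSO and a log2 change of 1.61 ± 0.46 (limma adjusted p = 0.0554). PSMC4 was lower in every genistein library (468, 305 and 292 FPKM) than in every DMSO library (561, 651 and 487 FPKM), with a log2 change of -0.70 ± 0.46 that did not pass (limma adjusted p = 0.34). PSMC5 had 972, 652 and 508 FPKM in genistein and 342, 637 and 743 in DMSO and overlapped. PSMC1, PSMC2 and PSMC3 had log2 changes of 0.61, 0.40 and -0.19; PSMC1 has 13 pseudogenes in the gene name table and is uncertain for that reason.

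Of the 14 PSMD genes, PSMD14 rose, PSMD1 fell and 12 did not pass after genistein. That is 14.3% called, against 12.1% of all genes (limma). PSMD2, the other scaffold subunit, which docks ubiquitin shuttle proteins, had 287, 272 and 233 FPKM in genistein and 82.1, 101 and 154 in DMSO, with a log2 change of 1.27 ± 0.36 (limma adjusted p = 0.0554). The 2 scaffold genes therefore had changes of opposite sign. The adjusted p of PSMD2 and PSMC6 was below 0.05 without BMP6 1 (0.0251 and 0.0455) and without BMP6 2 (0.0244 and 0.0449), and that of PSMC6 also without DMSO 3 (0.0351). PSMD8 and PSMD12, lid subunits, had genistein libraries wholly above DMSO: PSMD8 had 601, 389 and 407 FPKM in genistein and 244, 238 and 294 in DMSO, and PSMD12 had 199.5, 276 and 286 in genistein and 159, 158 and 118 in DMSO. Neither passed, with log2 changes of 0.82 ± 0.33 and 0.80 ± 0.32 (limma adjusted p = 0.139 and 0.143). PSMD4, the ubiquitin receptor, had 639, 507 and 334 FPKM in genistein and 328, 533 and 676 in DMSO and a log2 change of -0.04 ± 0.54. The lid genes PSMD3, PSMD6, PSMD7, PSMD11 and PSMD13 had log2 changes of 0.43, 0.26, -0.05, 0.14 and 0.82, and the assembly chaperones PSMD5, PSMD9 and PSMD10 of -0.55, 0.37 and -0.05. PSMD5 had 21.5, 21.9 and 31.7 FPKM in genistein and 38.8, 40.9 and 30.8 in DMSO.

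**Figure D4:**
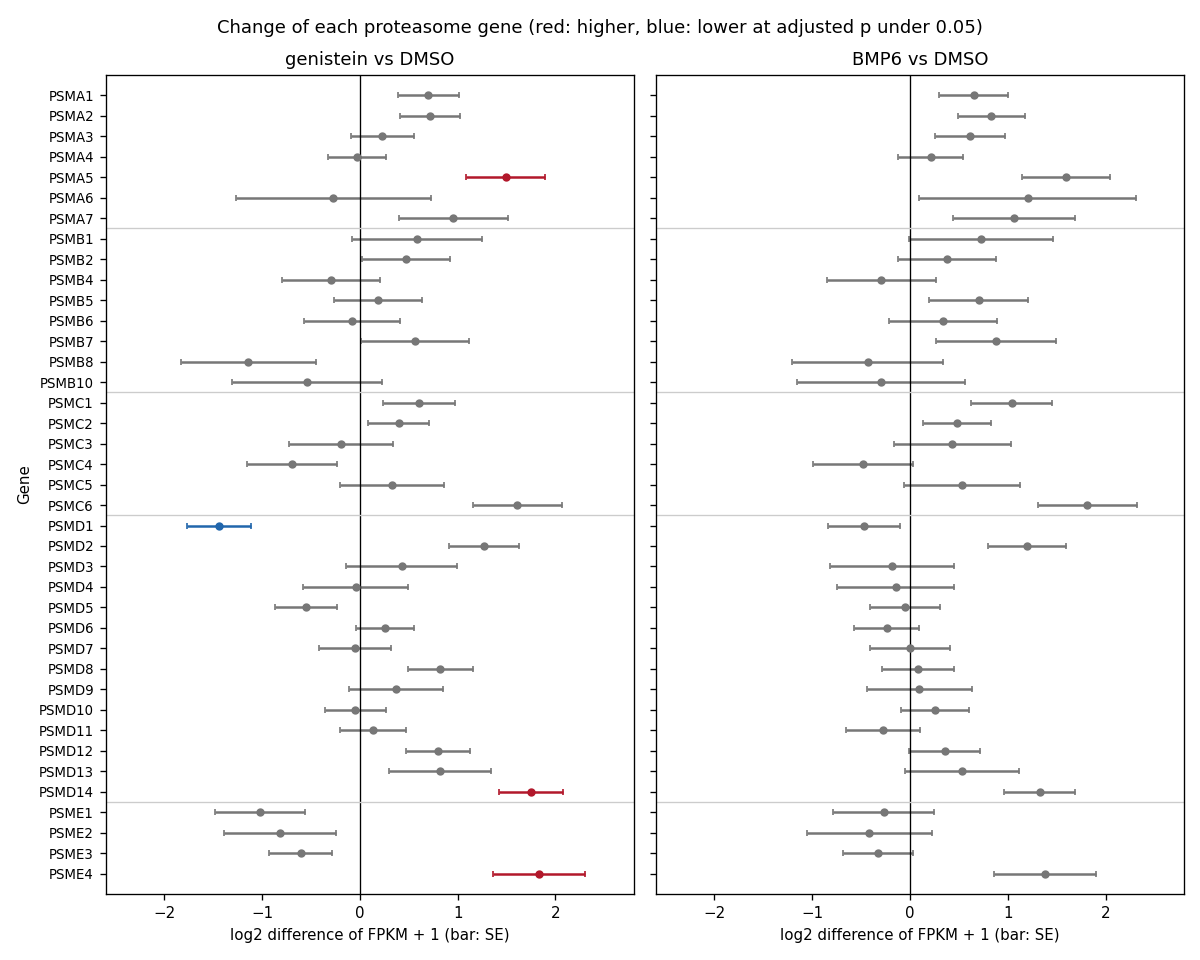
Log2 difference of FPKM + 1 with its SE for each of 39 proteasome genes, genistein against DMSO (left) and BMP6 against DMSO (right), with rows from PSMA1 at the top to PSME4 at the bottom. PSMA5, PSMD14 and PSME4 (red) and PSMD1 (blue) passed after genistein and no gene passed after BMP6; both panels use the same DMSO libraries.

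BMP6 was compared with DMSO in the same fit. No proteasome gene passed the threshold after BMP6 (0 of 39 by limma, against 0.837% of all genes, 0.34% higher and 0.498% lower; 7 members, or 17.9%, at an unadjusted p under 0.05, against 18.9% of all genes), although a group of 2 libraries leaves wide errors. The median log2 change was 0.65 over the core and 0.09 over the regulatory genes, against -0.03 over all genes tested. Of 15 core genes, 12 had a positive change (80%), against 48.4% of all genes, among them all 7 of the alpha ring. PSMA6 of that ring had a log2 change of 1.20 ± 1.11 and its lowest value in DMSO 1. The count of 12 became 15 without BMP6 1, 10 without BMP6 2 and 11 without DMSO 1. The core median was 1.00 without BMP6 1, 0.20 without BMP6 2 and 0.16 without DMSO 1, and the median of all genes moved with it, to 0.23, -0.35 and -0.19. The core median therefore lay above that of all genes by 0.77, 0.55 and 0.35 in these fits, against 0.68 with all libraries. Rescaling each library to the same FPKM total gave 0.53 for the core and -0.03 for the regulatory genes, with a median of -0.12 over all genes, so that the regulatory median lay 0.09 above it, against 0.11 without rescaling.

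Both BMP6 libraries lay above all DMSO libraries for 9 of 39 members, against 16.1% of all genes, and below for 1, against 17.3%, which is 10 of 39 together, against 33.3%. The 9 were PSMA1, PSMA2, PSMA3, PSMA5, PSMC1, PSMC6, PSMD2, PSMD14 and PSME4, and the 1 was PSMD6. PSMA5 had 775 and 909 FPKM in BMP6 and 178, 268 and 449 in DMSO (log2 change 1.59 ± 0.45, limma adjusted p = 0.136). PSMC6 had 181 and 218 FPKM in BMP6 and 38.01, 42.6 and 107 in DMSO (log2 change 1.81 ± 0.51, limma adjusted p = 0.136). The values of PSMD14 were 401 and 563 FPKM in BMP6 and 153, 178 and 248 in DMSO (log2 change 1.33 ± 0.36, limma adjusted p = 0.131). With median-of-ratios scaling PSMD14 and PSMD2 passed after BMP6 (limma adjusted p = 0.0314 and 0.0424). PSMD2 and PSME4 had log2 changes of 1.19 ± 0.40 and 1.38 ± 0.52, and PSMD1, at 230.4 and 243 FPKM in BMP6, of -0.47 ± 0.37. These changes share their DMSO libraries with those after genistein and are not independent of them.

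The BMP6 libraries differed from each other most for PSMB10, PSMD3, PSMB8, PSME2 and PSMC3. PSMB10 had 41.6 and 372 FPKM in BMP6 1 and 2, PSMB8 had 52.9 and 227, PSME2 had 349.9 and 1455 and PSMD3 had 147 and 668. In all of these BMP6 2 was more than 4 times as high as BMP6 1. The FPKM total was also higher in BMP6 2 (3105197) than in BMP6 1 (1704599), and these values were not rescaled for it. By contrast PSMD11 had 150.0 and 154 FPKM and PSMA2 293 and 309 FPKM in the same libraries. For genes such as PSMB10 (log2 change -0.30 ± 0.86) the spread was larger than the change.

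Genistein and BMP6 were also set against each other, which asks whether the treatments differed. No proteasome gene passed (0 of 39 by limma, against 1.39% of all genes, 0.64% higher and 0.75% lower; 1 member, PSMD1, at an unadjusted p under 0.05, against 14.7% of all genes). Of the 15 core genes 13 had lower means of log2 values in genistein and 2 higher (13.3% higher, against 57.3% of all genes). The median log2 difference was -0.25 over the core and -0.07 over the regulatory genes, against 0.12 over all genes tested. Without genistein 3 the core median was -0.03, with 9 of 15 negative, and the median of all genes was 0.15. Without BMP6 2 the core median was 0.24 and 10 of 15 were positive, but the median of all genes moved to 0.43, so that the core stayed below it by 0.19, against 0.36 with all libraries. Median-of-ratios scaling, which moved the median of all genes by -0.15 in this comparison, left all 15 core genes negative. PSMD1 had 147, 92.9 and 127 FPKM in genistein and 230.4 and 243 FPKM in BMP6, a gap of -0.97 ± 0.37 in log2 units (limma adjusted p = 0.274). Genistein libraries were wholly above the BMP6 libraries for 1 of 39 members (PSMD8), against 16.3% of all genes, and wholly below for 5 (PSMA4, PSMD1, PSMD5, PSMD10 and PSME3), against 12.6%. Together these are 6 of 39, against 28.9% of all genes.

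Genes that build, regulate or feed the proteasome were examined beside the subunits. The lists were chosen with earlier results of these data known. A list's share beside that of all genes is therefore a description and no test. Those genes named here that did not pass were picked after their values were seen. Over all genes tested, 6.11% passed higher, 5.96% lower and 12.1% either way after genistein (limma), and 29.95% had an unadjusted p under 0.05. Among 6 assembly chaperones 1 rose after genistein: PAAF1, a protein that binds free ATPase subunits, had 159, 114 and 132 FPKM in genistein and 56.8, 61.3 and 73.2 in DMSO (log2 change 1.06 ± 0.28, limma adjusted p = 0.0463). It was the only 1 of the 6 at an unadjusted p under 0.05 (limma). In BMP6 it had 77.2 and 95.1 FPKM, also wholly above DMSO, and did not pass (log2 change 0.43 ± 0.32, limma adjusted p = 0.477). POMP, the maturation factor of the core particle, had 679.9, 507 and 488 FPKM in genistein and 179, 379 and 329.9 in DMSO and did not pass (log2 change 0.97 ± 0.43, limma adjusted p = 0.176). None of 7 associated factors passed (limma; 2 at an unadjusted p under 0.05). Among them USP14, a deubiquitinase bound to the regulatory particle, had 79.1, 66.4 and 69.9 FPKM in genistein and 26.5, 41.5 and 47.02 in DMSO (log2 change 0.92 ± 0.32, limma adjusted p = 0.0973). None of 6 genes of ubiquitin and its activation passed either (limma; 1 at an unadjusted p under 0.05). The call of PAAF1 was lost without any 1 of the genistein or DMSO libraries, at adjusted p from 0.0827 to 0.155.

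Among 8 genes that control transcription of the proteasome, 2 rose and 1 fell after genistein, against 6.11% and 5.96% of all genes. At an unadjusted p under 0.05 (limma) there were 4 of 8, against 29.95% of all genes. Since this list was chosen with earlier results known, these counts do not test it. The small MAF genes MAFG and MAFF, whose products pair with NFE2L1 and NFE2L2 on antioxidant response elements, rose by 1.54 ± 0.29 and 1.99 ± 0.38 in log2 units (limma adjusted p = 0.0163 and 0.0174). MAFG had 167, 147 and 142 FPKM in genistein and 63.01, 48.3 and 44.6 in DMSO, and MAFF had 61.1, 55.6 and 48.2 in genistein and 13.4, 10.6 and 15.6 in DMSO. NFE2L3, a relative of NFE2L1, had 5.98, 4.66 and 3.57 FPKM in genistein and 36.4, 54.6 and 45.1 in DMSO, a log2 change of -3.02 ± 0.50 (limma adjusted p = 0.0114). In BMP6 it had 3.41 and 13.5 FPKM, also wholly below DMSO, and did not pass (log2 change -2.52 ± 0.56, limma adjusted p = 0.0834). Its genistein and BMP6 libraries overlapped. MAFG had 64.6 and 89.5 FPKM in BMP6, wholly above DMSO, and MAFF had 9.54 and 20.7, which overlapped DMSO. Neither passed after BMP6. NFE2L1 itself had 203, 168 and 249.7 FPKM in genistein and 146, 154 and 181 in DMSO and did not pass (log2 change 0.35 ± 0.28, limma adjusted p = 0.424), and NFE2L2 overlapped between groups (log2 change 0.32 ± 0.40). Transcript levels of NFE2L1 do not measure its activity, which is set by processing of the protein. Without genistein 1, 2 or 3 or DMSO 2 the calls of MAFG and MAFF were lost, MAFG also without DMSO 3, at adjusted p of at most 0.0775. The call of NFE2L3 was lost without genistein 3 (0.0559) and without DMSO 2 (0.0637).

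Of 9 shuttle and unfoldase genes 1 rose after genistein (11.1%), against 6.11% of all genes. At an unadjusted p under 0.05 (limma) there were 3 of 9, against 29.95% of all genes. This list too was chosen with earlier results known. SQSTM1, the gene of the ubiquitin-binding autophagy receptor p62, had 2862, 2062 and 2196 FPKM in genistein, 269 and 407 in BMP6 and 145, 225 and 333 in DMSO. The log2 change against DMSO was 3.40 ± 0.39 (limma adjusted p = 0.00457), and it passed without each single library in turn. It was also higher after genistein than after BMP6, by 2.82 ± 0.44 (limma adjusted p = 0.0242; from 0.0692 to 0.105 without genistein 1, 2 or 3, BMP6 1 or DMSO 2). VCP, the segregase that extracts ubiquitinated proteins, overlapped between groups, with 436, 278 and 322 FPKM in genistein and 162, 368 and 476 in DMSO. Of 7 tested partners of the immunoproteasome in antigen processing and interferon signalling, a list chosen in the same way, 3 had an unadjusted p under 0.05 (limma), against 29.95% of all genes. Of the 7, 1 rose past the threshold, against 6.11% of all genes. It was TAP2, a subunit of the peptide transporter, with 99.3, 95.7 and 93.5 FPKM in genistein and 17.02, 24.6 and 36.9 in DMSO (log2 change 1.90 ± 0.34, limma adjusted p = 0.0142). In BMP6 it had 60.1 and 70.1 FPKM, also wholly above DMSO, and did not pass (log2 change 1.34 ± 0.38, limma adjusted p = 0.136). TAP1, the other transporter subunit, had 66.2, 37.5 and 40.3 FPKM in genistein and 42.8, 74.04 and 106 in DMSO and did not pass, and TAPBP was not analysed here. IRF1, a transcription factor of immunoproteasome genes, had 15.7, 10.4 and 11.4 in genistein and 39.7, 23.7 and 27.4 in DMSO and did not pass either (log2 change -1.20 ± 0.46, limma adjusted p = 0.127). The call of TAP2 was lost without genistein 1, 2 or 3 or DMSO 2, at adjusted p from 0.0508 to 0.0672. After BMP6 no gene of these 6 lists passed (limma), against 0.837% of all genes. At an unadjusted p under 0.05 (limma) there were 5, against 18.9% of all genes. These were 1 of 7 associated factors, 1 of 8 transcription genes, 1 of 6 ubiquitin genes and 2 of 7 antigen processing partners. None were among the 6 assembly chaperones or the 9 shuttle and unfoldase genes.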

How the data were processed

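PolyA RNA of 8 HepG2 libraries was sequenced on an Illumina Genome Analyzer II, per the labels' protocols. The deposited values are FPKM per gene, 1 table a library, made by the authors with TopHat 1.1.0, Bowtie, Cufflinks 1.0.3 and Cuffdiff on hg18, per the submitters' processing notes, which give neither their order nor settings. The scaling between libraries and the use of strand are not given in the sources used here; totals differ between libraries. The tables hold no read counts, and low values do not scale with gene length, so depth is unknown and no counting interval is given. An FPKM of 0 can be a failed estimate.

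Ensembl IDs were matched to current symbols, which 19069 of 20897 genes have. The fit took the 12661 genes that reached 1 FPKM in 2 or more libraries, on the scale log2(FPKM + 1), with limma 3.58.1 (R 4.3.3), with an intensity trend, all 3 groups in 1 fit, two-sided tests and Benjamini-Hochberg adjustment over all genes tested (threshold 0.05). Fold changes on this scale understate those of low genes. The scripts were tested on simulated data. Groups come from the sample labels, and genistein and BMP6 share the DMSO libraries. Members, gene lists, markers and motifs were chosen with earlier results of these data known. Values by library are given for members past the threshold, immunoproteasome and activator genes with their constitutive counterparts, the highest and lowest member of the core and regulatory parts and related genes past the threshold; other genes given by library were chosen after their values were seen. Alternatives changed the pseudocount, filter, scaling, variance model, weights, samples and replicate term. Gene coordinates are hg18 from the files. Promoters are from a RefSeq table (GRCh38.p14); the builds were not mixed.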

Additional observations from a re-analysis of the deposited data

How the results depend on the processing

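The count of proteasome genes called after genistein against DMSO, 4 of 39, depended on the settings, and the share of all genes called, 12.1% at the settings reported, moved too. It was 2 (1 higher and 1 lower) with a pseudocount of 0.1 and also without the intensity trend (10.1% and 11.05% of all genes), 7 (5 higher and 2 lower) with median-of-ratios scaling and also with quantile normalization (17.7% and 18.9%), and 15 (9 higher and 6 lower) with library weights (42.5%), which stopped before converging. Leaving out each library in turn gave 0 to 6 calls: 0 without genistein 1, genistein 3 or DMSO 2 (4.74%, 2.23% and 1.83% of all genes), 1 without genistein 2 or DMSO 1 (4.56% and 8.14%), 4 without DMSO 3 (5.49%) and 6 without BMP6 1 or BMP6 2 (21.1% and 21.2%). Without DMSO 1 and genistein 2 together it was 0 (3.37%). The other filters, a pseudocount of 5, a fit of only the 2 groups and rescaling to a common total (chosen after seeing the data) gave 3 to 6. The share of all genes called in these ran from 10.9% with no filter to 20.7% with only the 2 groups. With the replicate number as a block the count was 0 (3.27%). Same-numbered genistein and DMSO libraries deviated from their group means with correlations of -0.146, -0.0652 and -0.00459, so the numbers are not taken to pair the libraries. For genistein and BMP6 the same-numbered values were -0.247 and 0.286. The highest value, 0.594, was between the differently numbered genistein 3 and BMP6 1. In a group of 2 libraries the deviations are equal and opposite. After BMP6 against DMSO the count of 0 became 2 (PSMD14 and PSMD2) with median-of-ratios scaling and 1 (PSMD14) with rescaling to a common total, and stayed 0 in the other alternatives, the block included. Between genistein and BMP6 it was 0 in all 21 alternatives. Of 504 values for 24 gene results under these alternatives, none turned its direction, 404 kept their side of the threshold, 75 lost it and 25 gained it. The cause of these shifts was not tested. Depth is unknown, so the precision of single values cannot be given.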
